A study of Homo sapiens with 36 samples.

Results

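The alpha-arrestins are a small family of adaptor proteins with an arrestin fold, and 5 of their genes are described here: TXNIP, ARRDC1, ARRDC2, ARRDC3 and ARRDC4. They were chosen by gene symbol from the 57665 genes of the deposited count table. For each symbol the row with the largest total count was taken, and all 5 were among the 19043 genes that passed the low-count filter. The libraries came from U2OS, a human osteosarcoma line, carrying Dmr-PERK, in which the eIF2α kinase domain of mouse PERK is fused to a DmrB domain. The ligand AP20187, called dimerizer, brings the fusion protein together and so switches on eIF2α phosphorylation and the integrated stress response (ISR), in which bulk translation falls and translation of the transcription factor ATF4 goes up. Cells of genotype ATF4KO and of genotype WT were collected after 2, 4, 8, 16 and 24 h with dimerizer at 1 labelled dose, and untreated cells of each genotype stood for 0 h. Each of the 12 groups had 3 libraries from wells of 24-well plates, 36 in all. All cells of both genotypes carried Dmr-PERK, and untreated wells were sampled at 0 h alone, so time in culture and time with dimerizer cannot be told apart. Whether the knockout is 1 clone was not given in the labels. Nothing in the labels gives the wells a separate culture each, and the error behind every p-value is that between wells, which may be technical.

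TXNIP (thioredoxin-interacting protein) binds and inhibits thioredoxin, and it lowers glucose uptake by taking the glucose transporter GLUT1 off the cell surface. Transcription of TXNIP and of ARRDC4 follows glucose through the factor MondoA (gene MLXIP) and its partner MLX, which bind paired E-box-like elements. The ARRDC proteins carry PPxY motifs that hold ubiquitin ligases of the NEDD4 family, and so bring these enzymes to membrane cargo. ARRDC3 acts in this way on integrin beta4, and ARRDC1 drives the budding of small vesicles from the cell surface with TSG101. Less is known of ARRDC2.

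Because the data concern transcripts of TXNIP and ARRDC4 above all, the stretches of their promoters that hold E-box-like letters are shown here. They are reference sequences from RefSeq on GRCh38.p14, where all 5 genes had at least 1 window of 300 bases, from 250 before to 50 after a transcription start. The TXNIP stretch is chr1:145996610-145996729, minus strand, from -150 to -31 relative to the start, with the paired element in capitals.
TXNIP: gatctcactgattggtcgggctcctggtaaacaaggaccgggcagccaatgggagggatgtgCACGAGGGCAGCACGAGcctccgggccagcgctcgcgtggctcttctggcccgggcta
The ARRDC4 stretch is chr15:97960483-97960602, plus strand, from -220 to -101, with an E-box in capitals.
ARRDC4: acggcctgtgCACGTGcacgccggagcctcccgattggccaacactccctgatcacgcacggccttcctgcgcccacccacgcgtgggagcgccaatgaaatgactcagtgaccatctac
On both strands, the paired form, CACGNG followed by 5 bases of any kind and CACGNG again, was found in 20 of 35116 such windows (0.057%), and TXNIP was the 1 member among them, from -88 to -72. The plain E-box CACGTG was found in 7.26% of windows and, among the members, in that of ARRDC4, from -210 to -205. The letters TGATGNAA, a form of the element bound by C/EBP and ATF factors, were found in 3.62% of windows and in none of the members'. The forkhead letters GTAAACA were found in 3.42% of windows, with a match for TXNIP (-124 to -118) and, on the other strand, for 1 of the ARRDC3 windows (-29 to -23). A match is a description of letters and not of binding. Its absence concerns these windows and these exact letters alone, and other spellings of an element were not searched.

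The libraries held 8608783 to 16265056 expected counts each. CPM, the expected count scaled to the size of the library, is used for a gene across samples, and TPM, the abundance per transcript length, for levels between genes. Of the osteoblast and osteosarcoma markers, RUNX2 was present at 21.3 to 56 CPM, COL1A1 at 306 to 1469 CPM and SPARC at 405 to 1437 CPM, while SP7 was at 0 in 30 of 36 libraries and COL1A2 reached at most 1.12 CPM. The summed level of the 6 osteoblast and osteosarcoma markers ran from 753 to 2940 CPM, that of 3 epithelial markers from 3.77 to 14.2 CPM, that of 3 leukocyte markers from 0.0675 to 1.08 CPM and that of 3 endothelial markers from 0.235 to 6.46 CPM. ATF4 itself was at 259, 274 and 265 CPM in untreated ATF4KO libraries, against 310, 323 and 322 CPM in untreated WT libraries, and at 24 h it averaged 731 ± 25.1 CPM in ATF4KO cells and 703 ± 12 CPM in WT cells (SD, n = 3 each), so counts per gene do not show how the gene was disrupted. Of 8 genes taken as checks of the response, ATF4 among them, 3 were higher and 3 lower at 24 h in ATF4KO cells. In WT cells 8 of 8 were higher. Over all tested genes, 65.4% were called at 24 h in each genotype (edgeR adjusted p under 0.05). ASNS, the asparagine synthetase gene and a target of ATF4, changed by -0.22 in log2 in ATF4KO cells (SE 0.09, edgeR adjusted p 0.028) and by 2.80 in WT cells (SE 0.04, edgeR adjusted p 5.4e-39).

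TXNIP rose in both genotypes, with its largest step between 4 and 8 h. In ATF4KO cells the log2 step from 0 to 2 h was close to that one (0.58 against 0.64). TXNIP started higher in ATF4KO cells, and at 8 and 24 h no difference between the genotypes was called. In these bulk libraries, fewer cells with a transcript and less of it per cell cannot be told apart. In ATF4KO libraries TXNIP was at 21.4, 22.9 and 22.8 CPM before dimerizer, 29.3, 33.8 and 37.0 after 2 h, 30.8, 34.0 and 36.5 after 4 h, 45.0, 53.1 and 58.7 after 8 h, 60.2, 56.6 and 52.0 after 16 h, and 53.6, 57.5 and 71.0 after 24 h. In WT libraries it was at 11.3, 12.2 and 11.9 CPM before dimerizer, 18.9, 21.1 and 24.2 after 2 h, 21.6, 21.1 and 24.4 after 4 h, 46.0, 57.0 and 61.4 after 8 h, 45.6, 48.2 and 45.9 after 16 h, and 57.0, 62.1 and 71.2 after 24 h. In both genotypes every treated library was above every untreated library of that genotype.

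The log2 change of TXNIP from 0 h in ATF4KO cells was 0.58 at 2 h (SE 0.12, adjusted p 0.00035), 0.58 at 4 h (SE 0.12, adjusted p 0.00011), 1.23 at 8 h (SE 0.11, adjusted p 3.4e-13), 1.34 at 16 h (SE 0.11, adjusted p 2.4e-14) and 1.45 at 24 h (SE 0.11, adjusted p 7e-16). Unless DESeq2 or log2(TPM + 1) is named, adjusted p-values are from the quasi-likelihood test of edgeR with Benjamini-Hochberg adjustment over the 19043 tested genes, and a gene is called at an adjusted p under 0.05. Those on log2(TPM + 1) are from limma, and there the untreated ATF4KO columns did not match their count columns. ATF4KO values against 0 h on that scale carry this limit. The fit took the spread of a gene from all groups together, so adjusted p-values of other contrasts on that scale can carry it too. In WT cells the change was 0.88 at 2 h (SE 0.14, adjusted p 4.6e-06), 0.93 at 4 h (SE 0.15, adjusted p 1.4e-06), 2.23 at 8 h (SE 0.12, adjusted p 1.4e-19), 1.98 at 16 h (SE 0.12, adjusted p 2.3e-18) and 2.42 at 24 h (SE 0.12, adjusted p 1.5e-21). At 24 h, 2.26% of tested genes had a higher log2 change than TXNIP in ATF4KO cells and 0.872% in WT cells.

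ARRDC4, the member closest to TXNIP in its known control by MondoA, rose in both genotypes and started from the lowest level of the 5 genes. In ATF4KO libraries ARRDC4 was at 3.84, 4.00 and 4.91 CPM before dimerizer, 5.01, 4.82 and 7.33 after 2 h, 10.2, 9.75 and 8.24 after 4 h, 12.5, 16.0 and 15.9 after 8 h, 22.5, 20.8 and 19.8 after 16 h, and 18.9, 20.9 and 26.2 after 24 h. In WT libraries it was at 2.96, 5.12 and 3.23 CPM before dimerizer, 4.78, 4.34 and 4.86 after 2 h, 7.34, 8.15 and 8.50 after 4 h, 17.4, 14.5 and 17.4 after 8 h, 18.8, 19.6 and 18.8 after 16 h, and 22.7, 22.9 and 27.7 after 24 h. From 4 h on, treated and untreated libraries of a genotype did not overlap, and the ranges of the genotypes overlapped at every time but 16 h.

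In ATF4KO cells the log2 change of ARRDC4 was 0.38 at 2 h (SE 0.19, adjusted p 0.19), 1.12 at 4 h (SE 0.18, adjusted p 1.2e-06), 1.77 at 8 h (SE 0.16, adjusted p 3.2e-13), 2.28 at 16 h (SE 0.15, adjusted p 2.5e-17) and 2.35 at 24 h (SE 0.14, adjusted p 3.2e-18). In WT cells it was 0.35 at 2 h (SE 0.20, adjusted p 0.21), 1.14 at 4 h (SE 0.19, adjusted p 3e-06), 2.17 at 8 h (SE 0.16, adjusted p 1.9e-15), 2.39 at 16 h (SE 0.15, adjusted p 5.3e-18) and 2.74 at 24 h (SE 0.15, adjusted p 4.1e-20). The 2 h value in WT cells passed without the second untreated WT library, at 0.58 (adjusted p 0.043). At 24 h, 0.347% of tested genes had a higher log2 change in ATF4KO cells and 0.641% in WT cells.

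**Figure D1:**
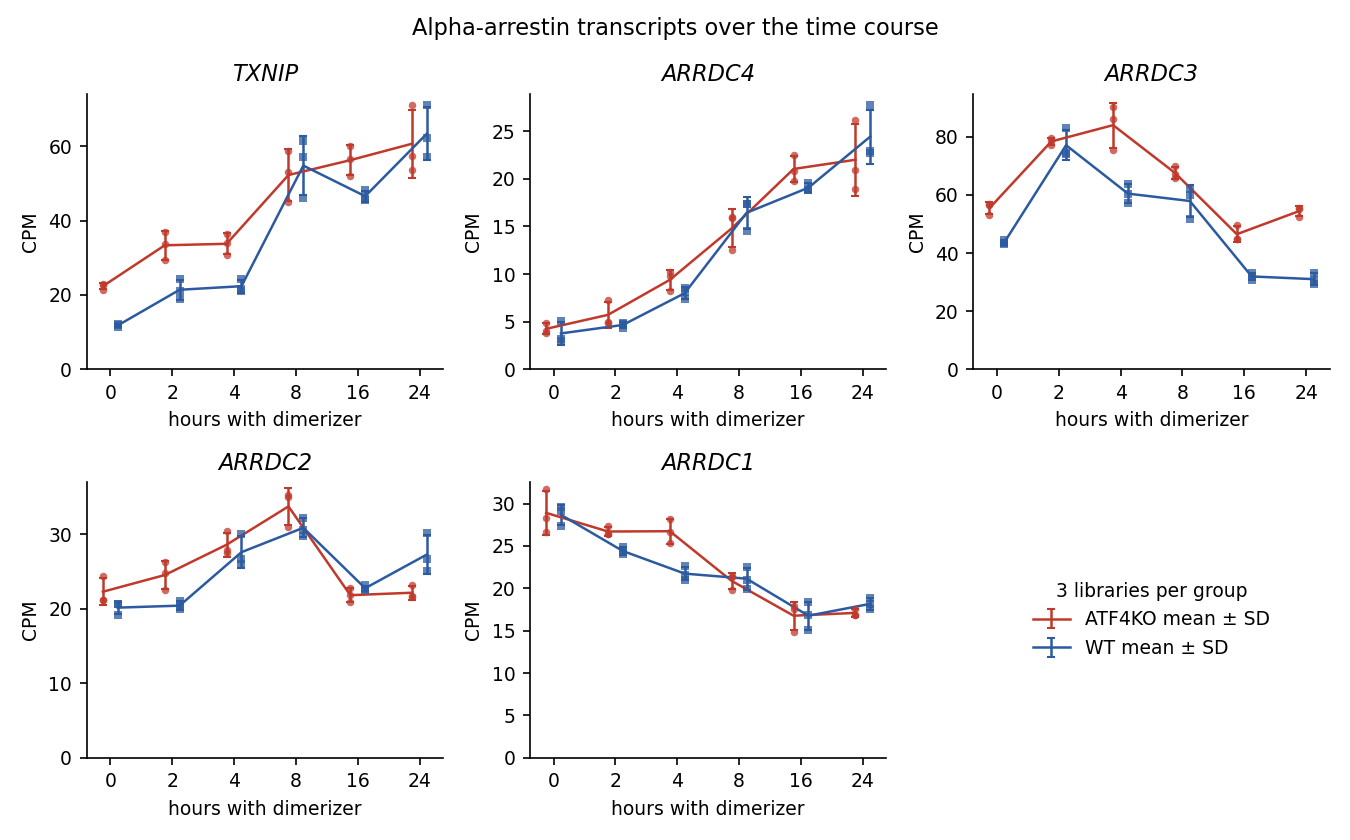
Level of each of the 5 genes in CPM (y axis, from 0) by hours with dimerizer (x axis, equal spacing per time point), where points are libraries and lines join group means with SD over 3 libraries. The means of TXNIP and ARRDC4 are highest at 24 h in both genotypes, that of ARRDC3 at 2 or 4 h and that of ARRDC2 at 8 h. ARRDC1 is below its untreated range from 8 h on in ATF4KO cells and from 2 h on in WT cells.

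ARRDC3, the adaptor for integrin beta4, rose early in both genotypes and then came down. In ATF4KO libraries ARRDC3 was at 56.9, 53.0 and 56.4 CPM before dimerizer, 79.5, 78.5 and 77.2 after 2 h, 75.4, 90.4 and 86.3 after 4 h, 65.7, 69.9 and 67.2 after 8 h, 49.6, 45.0 and 44.9 after 16 h, and 52.5, 55.2 and 55.5 after 24 h. In WT libraries it was at 44.4, 43.5 and 43.0 CPM before dimerizer, 83.0, 74.1 and 74.3 after 2 h, 60.5, 57.1 and 63.8 after 4 h, 51.8, 59.9 and 62.1 after 8 h, 30.8, 33.3 and 31.8 after 16 h, and 30.8, 29.2 and 33.1 after 24 h. The WT libraries were lowest at 16 and 24 h, below all untreated WT libraries, whereas the ATF4KO libraries at 24 h overlapped their untreated range.

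The log2 change of ARRDC3 in ATF4KO cells was 0.50 at 2 h (SE 0.06, adjusted p 1.9e-08), 0.59 at 4 h (SE 0.06, adjusted p 3.7e-11) and 0.28 at 8 h (SE 0.06, adjusted p 5.1e-05). It was -0.24 at 16 h (SE 0.06, adjusted p 0.0011) and -0.02 at 24 h, with a 95% interval of -0.15 to 0.10 (adjusted p 0.74). In WT cells it was 0.81 at 2 h (SE 0.06, adjusted p 1.8e-14), 0.47 at 4 h (SE 0.06, adjusted p 5.6e-08), 0.42 at 8 h (SE 0.06, adjusted p 3e-07), -0.45 at 16 h (SE 0.07, adjusted p 1.2e-07) and -0.50 at 24 h (SE 0.07, adjusted p 4e-08). On log2(TPM + 1) with limma the ATF4KO value of 16 h was -0.19 (adjusted p 0.097) and that of 24 h was 0.24 (adjusted p 0.039).

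ARRDC2 rose in both genotypes and had its highest mean at 8 h. In WT cells the step from 4 to 8 h was not called (0.16, adjusted p 0.097). It passed without the first WT library at 4 h (0.22, adjusted p 0.033) and on log2(TPM + 1) (0.41, adjusted p 0.029). The WT libraries at 8 h overlapped those at 4 and 24 h. In ATF4KO libraries ARRDC2 was at 24.4, 21.2 and 21.2 CPM before dimerizer, 26.2, 22.5 and 24.8 after 2 h, 27.9, 27.4 and 30.4 after 4 h, 30.9, 35.2 and 35.0 after 8 h, 20.9, 22.7 and 21.8 after 16 h, and 23.2, 21.5 and 21.7 after 24 h. In WT libraries it was at 20.6, 20.6 and 19.2 CPM before dimerizer, 20.3, 19.9 and 21.0 after 2 h, 30.0, 26.7 and 26 after 4 h, 32.2, 29.7 and 30.6 after 8 h, 22.6, 22.5 and 23.1 after 16 h, and 26.6, 30.2 and 25 after 24 h. At 16 and 24 h the ATF4KO libraries overlapped the untreated ones, and all WT libraries were above theirs.

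The log2 change of ARRDC2 in ATF4KO cells was 0.37 at 4 h (SE 0.08, adjusted p 9.6e-05) and 0.61 at 8 h (SE 0.07, adjusted p 6.1e-10). At 2, 16 and 24 h it was 0.13, -0.03 and -0.01, with adjusted p of 0.25, 0.79 and 0.96. In WT cells it was 0.02 at 2 h (adjusted p 0.88), 0.46 at 4 h (SE 0.08, adjusted p 3.8e-06), 0.61 at 8 h (SE 0.07, adjusted p 1.8e-09), 0.18 at 16 h (SE 0.07, adjusted p 0.03) and 0.45 at 24 h (SE 0.07, adjusted p 1.1e-06). The 16 h call in WT cells was lost with DESeq2 (adjusted p 0.11) and without the third untreated WT library or the first or the third at 16 h (adjusted p 0.05 to 0.13), and on log2(TPM + 1) with limma the WT values at 4 and 24 h were 0.33 (adjusted p 0.069) and 0.31 (adjusted p 0.059). These WT values at 4 and 24 h were called on that scale with the third untreated ATF4KO column left out. With all columns, ARRDC2 at 24 h in ATF4KO cells was 0.34 on log2(TPM + 1) (adjusted p 0.04).

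ARRDC1, the vesicle-budding member, fell in both genotypes. In ATF4KO libraries ARRDC1 was at 28.3, 31.7 and 26.7 CPM before dimerizer, 27.3, 26.4 and 26.4 after 2 h, 26.7, 28.2 and 25.3 after 4 h, 21.5, 21.3 and 19.8 after 8 h, 14.9, 17.5 and 17.9 after 16 h, and 16.8, 16.9 and 17.6 after 24 h. In WT libraries it was at 27.3, 29.6 and 29.1 CPM before dimerizer, 24.3, 24.9 and 24.0 after 2 h, 22.6, 21.0 and 21.6 after 4 h, 22.5, 21.0 and 19.9 after 8 h, 16.8, 15.1 and 18.4 after 16 h, and 18.9, 18.1 and 17.5 after 24 h. All WT libraries from 2 h on were below the untreated WT range, and the ATF4KO libraries were so from 8 h on.

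The log2 change of ARRDC1 in ATF4KO cells was -0.11 at 2 h (adjusted p 0.31), -0.10 at 4 h (adjusted p 0.25), -0.46 at 8 h (SE 0.07, adjusted p 3e-07), -0.80 at 16 h (SE 0.08, adjusted p 2.9e-12) and -0.75 at 24 h (SE 0.07, adjusted p 5e-12). In WT cells it was -0.23 at 2 h (SE 0.07, adjusted p 0.01), -0.39 at 4 h (SE 0.07, adjusted p 2.4e-05), -0.44 at 8 h (SE 0.07, adjusted p 1.5e-06), -0.76 at 16 h (SE 0.07, adjusted p 1.4e-12) and -0.65 at 24 h (SE 0.07, adjusted p 2.3e-10). On log2(TPM + 1) with limma the WT value at 2 h was -0.22 (adjusted p 0.22). With no filter on that scale, the 4 h value in WT cells was -0.28 (adjusted p 0.06) and the 8 h value -0.26 (adjusted p 0.064).

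**Figure D2:**
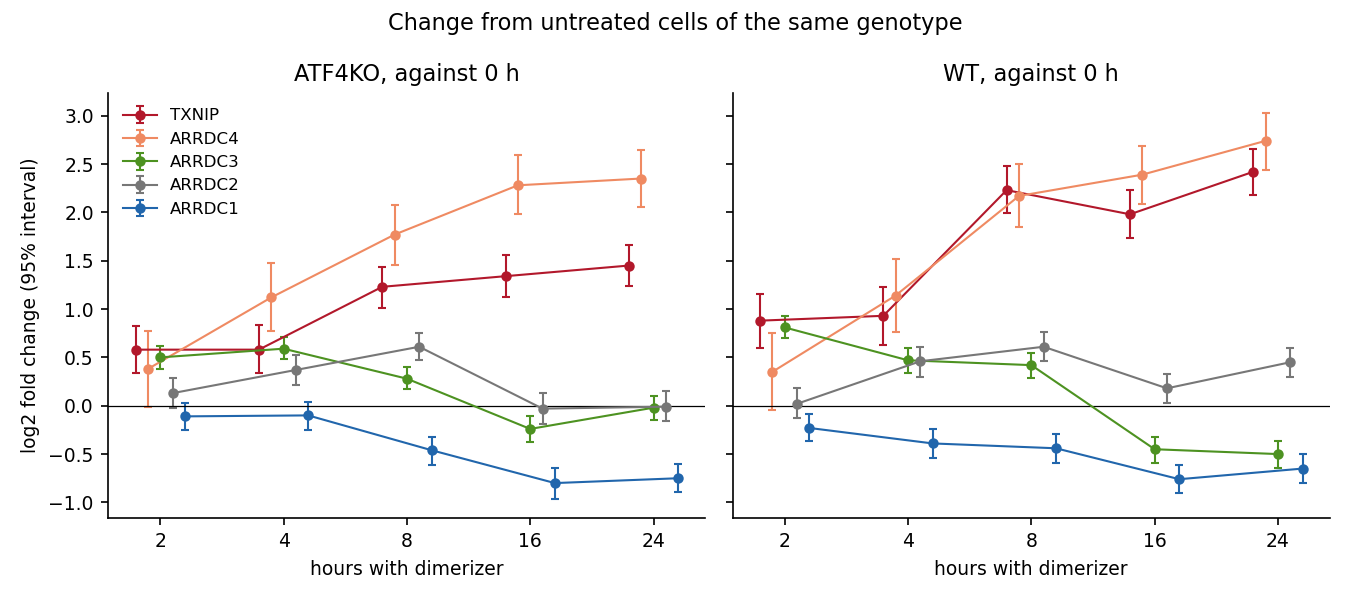
Fitted log2 fold change from untreated cells of the same genotype (y axis) with 95% intervals by hours with dimerizer (x axis, equal spacing), ATF4KO on the left and WT on the right. TXNIP reaches 1.45 in ATF4KO cells and 2.42 in WT cells at 24 h, while ARRDC4 reaches 2.35 in ATF4KO cells and 2.74 in WT cells.

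Read against all tested genes, counts of members called in the courses say little, because the response was broad. In ATF4KO cells 2 of 5 were called at 2 h, where 18.3% of tested genes were called, and 4 of 5 at 4 h (42.4% of tested genes). Later it was 5 of 5 at 8 h (61.9%), 4 of 5 at 16 h (65.7%) and 3 of 5 at 24 h (65.4%). In WT cells 3 of 5 were called at 2 h (22.6% of tested genes), and 5 of 5 at 4 h (44.7%), 8 h (59.3%), 16 h (66.5%) and 24 h (65.4%). The members also moved in both directions. The median log2 change of the 5 at 24 h was -0.01 in ATF4KO cells and 0.45 in WT cells, against -0.03 in ATF4KO cells and -0.02 in WT cells over all tested genes.

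Neighbouring times were also compared. From 4 to 8 h TXNIP changed by 0.64 in ATF4KO cells (SE 0.10, adjusted p 1.6e-06) and by 1.30 in WT cells (SE 0.12, adjusted p 2.1e-12), while the step from 2 to 4 h was 0.00 in ATF4KO cells (adjusted p 0.99) and 0.05 in WT cells (adjusted p 0.8). In WT cells TXNIP then changed by -0.25 from 8 to 16 h (SE 0.09, adjusted p 0.026), with overlapping libraries. This call was lost without the second or the third library at 8 h or the first or the third at 16 h (adjusted p 0.051 to 0.24), and on log2(TPM + 1) (adjusted p 0.066). It changed by 0.44 from 16 to 24 h in WT cells (SE 0.09, adjusted p 0.00046). In ATF4KO cells it changed by 0.11 in each of these 2 steps (adjusted p 0.33 and 0.48).

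ARRDC4 went up in more even steps than TXNIP. In ATF4KO cells it changed by 0.75 from 2 to 4 h (SE 0.17, adjusted p 0.0005), by 0.65 from 4 to 8 h (SE 0.14, adjusted p 0.00013) and by 0.51 from 8 to 16 h (SE 0.12, adjusted p 0.00025). In WT cells the same steps were 0.78 (SE 0.18, adjusted p 0.0004), 1.03 (SE 0.15, adjusted p 1.9e-07) and 0.22 (SE 0.12, adjusted p 0.13). ARRDC3 fell most from 8 to 16 h, by -0.53 in ATF4KO cells (SE 0.06, adjusted p 1.3e-09) and by -0.87 in WT cells (SE 0.07, adjusted p 1.1e-14). ARRDC2 changed over the same step by -0.64 in ATF4KO cells (SE 0.07, adjusted p 6.9e-10) and by -0.43 in WT cells (SE 0.07, adjusted p 2.2e-06). From 2 to 4 h ARRDC3 changed in WT cells by -0.34 (SE 0.06, adjusted p 6.9e-06), a call lost on log2(TPM + 1) (-0.26, adjusted p 0.059). That call was kept on this scale with the third untreated ATF4KO column left out. Over this step ARRDC3 changed by 0.09 in ATF4KO cells (adjusted p 0.21), a step that passed without the first ATF4KO library at 4 h (0.17, adjusted p 0.02). In ATF4KO cells 2 of 5 members were called from 2 to 4 h, where 33.6% of tested genes were called, and 5 of 5 from 4 to 8 h (43.5%). It was 4 of 5 from 8 to 16 h (52%) and 1 of 5 from 16 to 24 h (17.6%). In WT cells 3 of 5 were called from 2 to 4 h (36.7%), 2 of 5 from 4 to 8 h (36%), 4 of 5 from 8 to 16 h (47.8%) and 3 of 5 from 16 to 24 h (16.3%). In this last WT step ARRDC2 changed by 0.27 (adjusted p 0.0061) and ARRDC4 by 0.35 (adjusted p 0.019). Both calls were lost on log2(TPM + 1) (adjusted p 0.89 and 0.3). That of ARRDC2 was lost without the second WT library at 24 h (adjusted p 0.13). That of ARRDC4 was lost without the third WT library at 24 h (adjusted p 0.15) or the first or the third at 16 h (adjusted p 0.053 and 0.065).

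ATF4KO and WT cells were also compared at each time, which asks where the levels, rather than the changes, depended on genotype. TXNIP and ARRDC3 were higher in ATF4KO cells before any dimerizer, and the difference in TXNIP was not called at 8 and 24 h while that in ARRDC3 was widest at 24 h among these times. Untreated TXNIP averaged 22.3 ± 0.814 CPM in ATF4KO cells and 11.8 ± 0.489 CPM in WT cells (SD, n = 3 each), a log2 difference of 0.93 (SE 0.14, adjusted p 1.7e-06). The TXNIP difference was 0.63 at 2 h (SE 0.12, adjusted p 4.9e-05), 0.58 at 4 h (SE 0.13, adjusted p 0.0004), -0.08 at 8 h (95% interval -0.27 to 0.11, adjusted p 0.57), 0.29 at 16 h (SE 0.09, adjusted p 0.014) and, by 24 h, -0.05 (95% interval -0.22 to 0.13, adjusted p 0.74). The libraries of the genotypes overlapped at 8 and 24 h, although at both times each WT library was above the ATF4KO library of the same replicate number. Neither difference was called with a replicate block in the fit. The 16 h call did not hold without the first ATF4KO library (0.21, adjusted p 0.15), the first WT library (0.26, adjusted p 0.054) or the third WT library (0.26, adjusted p 0.059) of that time, nor on log2(TPM + 1) (0.27, adjusted p 0.11).

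The ARRDC3 difference between ATF4KO and WT cells was 0.34 at 0 h (SE 0.06, adjusted p 3.5e-05), 0.03 at 2 h (adjusted p 0.78), 0.47 at 4 h (SE 0.06, adjusted p 5.2e-08), 0.21 at 8 h (SE 0.06, adjusted p 0.0044), 0.55 at 16 h (SE 0.07, adjusted p 8.2e-09) and 0.82 at 24 h (SE 0.07, adjusted p 1.8e-13). At 24 h the fold was 1.77, and every ATF4KO library was above every WT library. The 0 h call was lost on log2(TPM + 1) (0.18, adjusted p 0.29) and with the third untreated ATF4KO column left out (0.23, adjusted p 0.2). The 8 h call was lost without the first WT library at 8 h (0.15, adjusted p 0.066) and on log2(TPM + 1) (0.23, adjusted p 0.11).

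ARRDC1 was called between ATF4KO and WT cells at 4 h alone, at 0.30 (SE 0.08, adjusted p 0.0027). ARRDC2 was higher in ATF4KO cells at 2 h by 0.25 (adjusted p 0.014), a call that was lost without the second WT library (0.23, adjusted p 0.061), without the first ATF4KO library (0.20, adjusted p 0.086) and on log2(TPM + 1) (adjusted p 0.2). It was lower in ATF4KO cells at 24 h by -0.32 (SE 0.07, adjusted p 0.00048). The ARRDC2 difference at 24 h was -0.11 on log2(TPM + 1) (adjusted p 0.66). Without the first ATF4KO library at 8 h that of 8 h passed (0.19, adjusted p 0.039). ARRDC4 was not called at any time, and passed at 24 h without the third ATF4KO library (-0.29, adjusted p 0.045). Members called were 2 of 5 at 0 h, where 23.5% of tested genes were called, 2 of 5 at 2 h (21.5%) and 3 of 5 at 4 h (27.1%). Later they were 1 of 5 at 8 h (34.6%), 2 of 5 at 16 h (36.2%) and 2 of 5 at 24 h (38.1%).

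**Figure D3:**
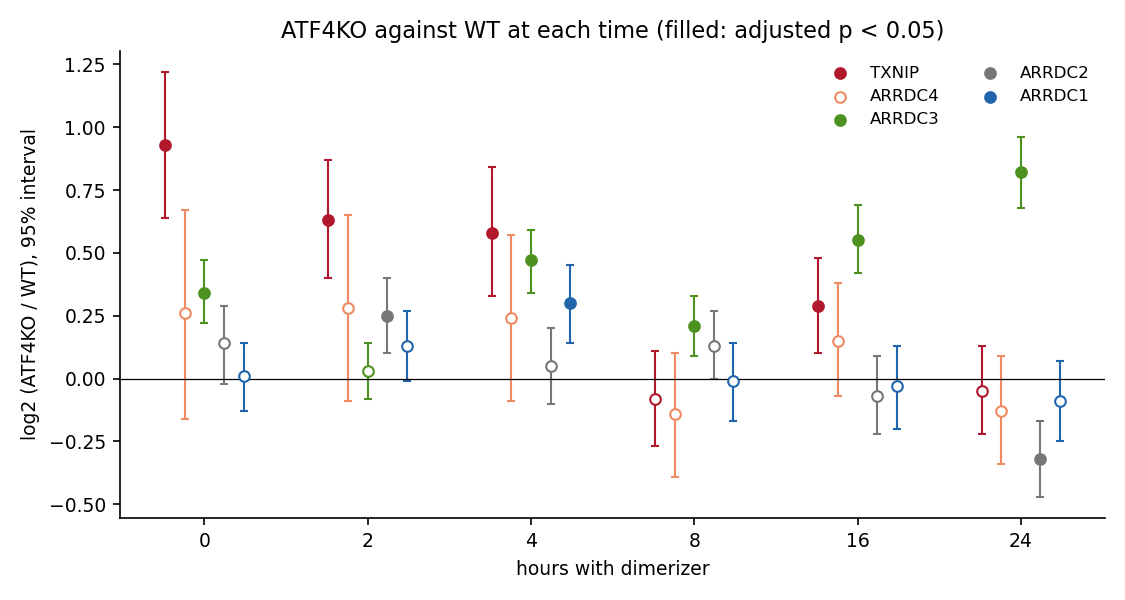
Log2 ratio of ATF4KO to WT (y axis) with 95% intervals for each gene by hours with dimerizer (x axis, equal spacing), filled where the adjusted p was under 0.05. TXNIP starts at 0.93 and is at -0.05 at 24 h, while ARRDC3 is at 0.82 at 24 h.

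The difference of the responses, the change in ATF4KO cells minus that in WT cells, was tested directly. The rise of TXNIP was smaller in ATF4KO cells by -1.01 in log2 at 8 h (95% interval -1.35 to -0.66, adjusted p 1.8e-05), by -0.64 at 16 h (-0.99 to -0.30, adjusted p 0.0031) and by -0.98 at 24 h (-1.31 to -0.64, adjusted p 9.8e-06). At 2 and 4 h it was -0.30 and -0.35 (adjusted p 0.76 and 0.45). The 16 h call was lost on log2(TPM + 1) with no filter (-0.52, adjusted p 0.067). Both responses are measured from untreated cells, which differed by 0.93, so the same 3 untreated libraries of each genotype stand behind every one of these values.

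ARRDC3 at 24 h differed in the other direction, by 0.48 (SE 0.09, adjusted p 7.1e-05). At 16 h, after a fall in both genotypes, its difference was 0.21 and not called (adjusted p 0.09). From 16 to 24 h ARRDC3 changed by 0.22 in ATF4KO cells (adjusted p 0.013) and by -0.05 in WT cells (adjusted p 0.73). The ATF4KO step was not called without the second or the third library at 16 h (adjusted p 0.053 and 0.054). At 2 h its difference was -0.31 (SE 0.08, adjusted p 0.12), and this passed with no filter on low counts (adjusted p 0.027). ARRDC2 at 24 h differed by -0.46 (SE 0.11, adjusted p 0.00072), but on log2(TPM + 1) by 0.03 (adjusted p 0.96) and, with the third untreated ATF4KO column left out, by -0.15 (adjusted p 0.68). ARRDC4 was called at none of the times, with -0.40 at 8 h (95% interval -0.89 to 0.08, adjusted p 0.27) and -0.38 at 24 h (-0.85 to 0.08, adjusted p 0.23). These intervals still hold differences as large as those of TXNIP at 16 h. ARRDC1 was likewise never called, the largest value being 0.29 at 4 h (95% interval 0.08 to 0.49, adjusted p 0.13). It passed without the second untreated ATF4KO library (0.36, adjusted p 0.045).

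At 2 and 4 h 0 of 5 members were called by edgeR for the difference of responses, where 0.299% and 3.28% of tested genes were called, and 1 of 5 had an unadjusted p under 0.05 at each. DESeq2 gave no adjusted p for the members at 2 h and called 0 of 5 at 4 h. Members called were 1 of 5 at 8 h (18.3% of tested genes), 1 of 5 at 16 h (27.7%) and 3 of 5 at 24 h (29.8%).

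Between genes, levels per transcript length put ARRDC1 first and ARRDC4 last in untreated WT cells, and the order was another at 24 h. In untreated WT cells the mean was 30.8 ± 0.671 TPM for ARRDC1, 20.5 ± 1.09 TPM for ARRDC3, 18.3 ± 1.08 TPM for ARRDC2, 6.34 ± 0.576 TPM for TXNIP and 1.38 ± 0.443 TPM for ARRDC4 (SD, n = 3). The ranges of these neighbours did not overlap, with 19.9 to 21.8 TPM for ARRDC3 and 17.1 to 19.1 TPM for ARRDC2. By 24 h TXNIP was first, at 31.8 TPM in ATF4KO cells and 32.6 TPM in WT cells. It was followed in ATF4KO cells by ARRDC3 (27.8 TPM), ARRDC2 (21.1 TPM) and ARRDC1 (18.2 TPM), and in WT cells by ARRDC2 (23.1 TPM), ARRDC1 (17.1 TPM) and ARRDC3 (15.3 TPM). In WT cells at 24 h the ranges of ARRDC1 (16.5 to 18 TPM) and ARRDC3 (13.9 to 16.6 TPM) overlapped, and in ATF4KO cells those of TXNIP and ARRDC3 met at 29.6 TPM. ARRDC4 stayed last, at 7.77 TPM in ATF4KO cells and 8.69 TPM in WT cells. TPM of untreated ATF4KO cells are not given, because 1 of those 3 deposited TPM columns matched no count column and the other 2 matched count columns of another number.

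**Figure D4:**
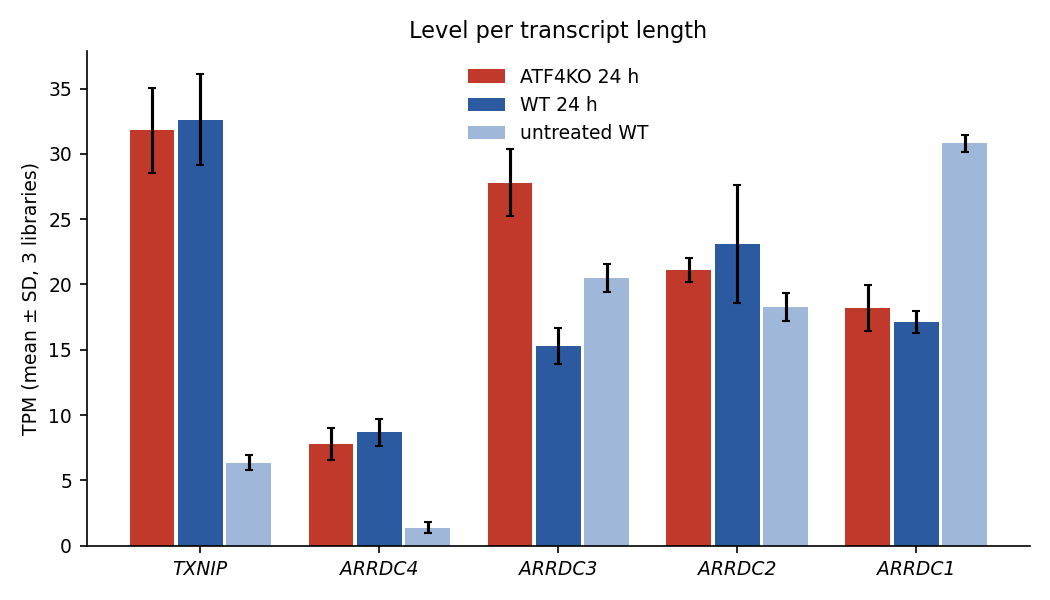
Mean TPM with SD over 3 libraries (y axis, from 0) for each gene, with bars for ATF4KO at 24 h, WT at 24 h and untreated WT. TXNIP is at 31.8 TPM in ATF4KO cells and 32.6 TPM in WT cells at 24 h, against 6.34 TPM in untreated WT cells.

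Across the 12 group means of log2 CPM, which share 2 untreated groups and 1 time axis, Pearson's r between TXNIP and ARRDC4 was 0.93. Values for ARRDC1 were -0.79 with TXNIP and -0.91 with ARRDC4, and that of ARRDC3 with ARRDC4 was -0.47. Among 7105 genes of sufficient level and range, those with the pattern most like TXNIP were AC010642.1 (r 0.945), TM4SF19 (0.94) and TLCD1 (0.929). Those most like ARRDC4 were XPO5 (0.987), C6orf48 (0.985) and LRPPRC (0.984), and those most like ARRDC1 were SEPT6 (0.983), SDC3 (0.979) and UBE2L6 (0.978). For ARRDC2 they were LINC00623 (0.953), RP11-575F12.2 (0.935) and PHC2 (0.932), and for ARRDC3 they were XDH (0.948), TIAM2 (0.946) and LINC01605 (0.934).

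The genes lie apart on GRCh38 (GENCODE 29): TXNIP at chr1:145992435-145996600 on the minus strand, and ARRDC3 at chr5:91368724-91383359 on the minus strand. ARRDC1 lies at chr9:137605654-137615360 on the plus strand, ARRDC4 at chr15:97960698-97973838 on the plus strand and ARRDC2 at chr19:18001132-18014102 on the plus strand. The libraries were directional, but the strand setting of the quantification was not given, so reads of overlapping genes may not have been told apart. ARRDC1-AS1 overlaps the end of ARRDC1 by 29 bases on the opposite strand, and it rose at 24 h by 0.42 in ATF4KO cells (SE 0.09, adjusted p 4.3e-05) and by 0.43 in WT cells (SE 0.08, adjusted p 1.8e-05), opposite to ARRDC1. The ATF4KO value was 0.19 on log2(TPM + 1) (adjusted p 0.13). ARRDC3-AS1 overlaps ARRDC3 by 3011 bases on the opposite strand and lay between 0.722 and 2.34 CPM. The annotated gene AL590627.2 overlaps ARRDC1 by 9617 bases on the same strand, so ARRDC1 counts carry that uncertainty. AC020904.3 overlaps ARRDC2 by 442 bases on the opposite strand. ARRDC5, the remaining ARRDC gene, had 14 counts over all 36 libraries and was not tested.

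Of the factors known to control TXNIP and ARRDC4, MLXIP rose in both genotypes. MLX rose in ATF4KO cells at 8, 16 and 24 h. In WT cells MLX was called lower at 8 and 24 h but not at 16 h (-0.08, adjusted p 0.25). Control by these factors was not tested here. MLXIP changed at 8 h by 0.73 in ATF4KO cells (SE 0.04, adjusted p 3.8e-20) and by 0.67 in WT cells (SE 0.04, adjusted p 5.7e-19). At 24 h it changed by 0.65 in ATF4KO cells (SE 0.04, adjusted p 1.1e-18) and by 0.49 in WT cells (SE 0.04, adjusted p 9.2e-15). MLX changed at 8 h by 0.29 in ATF4KO cells (SE 0.06, adjusted p 9.3e-05) and by -0.19 in WT cells (SE 0.07, adjusted p 0.014), with a difference of 0.48 (SE 0.09, adjusted p 0.00012). At 24 h the MLX difference was 0.39 (SE 0.09, adjusted p 0.00068), and the MLX fall in WT cells was lost without the second WT library at 8 h (-0.16, adjusted p 0.075) or at 24 h (-0.16, adjusted p 0.076), and on log2(TPM + 1) (-0.12, adjusted p 0.34 at 8 h). MLXIPL, the gene of the related factor ChREBP, had too few counts to be tested.

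In the thioredoxin system, whose thioredoxin TXNIP binds, the response of TXNRD1 and TXNRD2 differed between genotypes in opposite directions. At 24 h 65.4% of all tested genes were called in each genotype, and the counts of this and the following lists are to be read against that share. Of 15 genes at 24 h, 8 were higher and 3 lower in ATF4KO cells, and 9 were higher and 5 lower in WT cells, with a median log2 change of 0.18 in ATF4KO cells and 0.27 in WT cells. TXN, thioredoxin itself, changed by 0.80 in ATF4KO cells (SE 0.05, adjusted p 2.9e-17) and by 0.56 in WT cells (SE 0.05, adjusted p 5.3e-13). TXNRD1, cytosolic thioredoxin reductase, averaged 357 ± 7.27 CPM in ATF4KO cells and 983 ± 9.82 CPM in WT cells at 24 h (SD, n = 3 each). Its log2 change was -0.02 in ATF4KO cells (adjusted p 0.73) and 1.28 in WT cells (SE 0.04, adjusted p 1.4e-29), a difference of -1.30 (SE 0.05, adjusted p 6.1e-23). SRXN1, sulfiredoxin, rose by 0.67 in ATF4KO cells and by 1.85 in WT cells (SE 0.04 each), a difference of -1.18 (SE 0.06, adjusted p 3.9e-20). TXNRD2, the mitochondrial reductase, went the other way, at -0.03 in ATF4KO cells (adjusted p 0.38) and -0.85 in WT cells (SE 0.04, adjusted p 2.8e-23), a difference of 0.81 (SE 0.05, adjusted p 4.8e-17). For TXNRD3, a further reductase, the difference was 0.39 (95% interval -0.23 to 1.01, adjusted p 0.38).

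Of 13 genes of glucose uptake and phosphorylation, 4 were higher and 6 lower at 24 h in each genotype (65.4% of all tested genes were called), with a median of -0.18 in ATF4KO cells and -0.14 in WT cells. SLC2A1, which encodes GLUT1, changed at 8 h by -0.15 in ATF4KO cells (SE 0.03, adjusted p 0.00019) and by -0.54 in WT cells (SE 0.04, adjusted p 6e-17), a difference of 0.39 (SE 0.05, adjusted p 7e-08). The ATF4KO value was -0.05 on log2(TPM + 1) (adjusted p 0.66). At 24 h it changed by -0.33 in ATF4KO cells and by -0.37 in WT cells, a difference of 0.05 (adjusted p 0.53). HK2, a hexokinase gene, rose at 24 h by 1.22 in ATF4KO cells (SE 0.07, adjusted p 3.8e-19) and by 1.41 in WT cells (SE 0.07, adjusted p 5.1e-22). SLC2A12, another glucose transporter gene, fell by 2.78 in ATF4KO cells and by 4.06 in WT cells on the log2 scale, a difference of 1.28 (SE 0.25, adjusted p 6.9e-05), or 0.42 on log2(TPM + 1) (adjusted p 0.3).

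Of 6 tested genes for membrane proteins on which alpha-arrestins are known to act, 2 were higher and 3 lower at 24 h in ATF4KO cells, and 1 was higher and 3 lower in WT cells, beside 65.4% of all tested genes called, with a median of -0.25 in ATF4KO cells and -0.26 in WT cells. F2R, the thrombin receptor PAR1, fell by 1.88 in ATF4KO cells and by 2.21 in WT cells (SE 0.06 each). ITGB4, integrin beta4, fell by 2.25 in ATF4KO cells (SE 0.17) and by 2.65 in WT cells (SE 0.19). NOTCH1 rose by 0.49 in ATF4KO cells (SE 0.06, adjusted p 3.3e-10) and changed by 0.08 in WT cells (adjusted p 0.26), a difference of 0.41 (SE 0.08, adjusted p 9.3e-05), or 0.32 on log2(TPM + 1) (adjusted p 0.07).

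**Figure D5:**
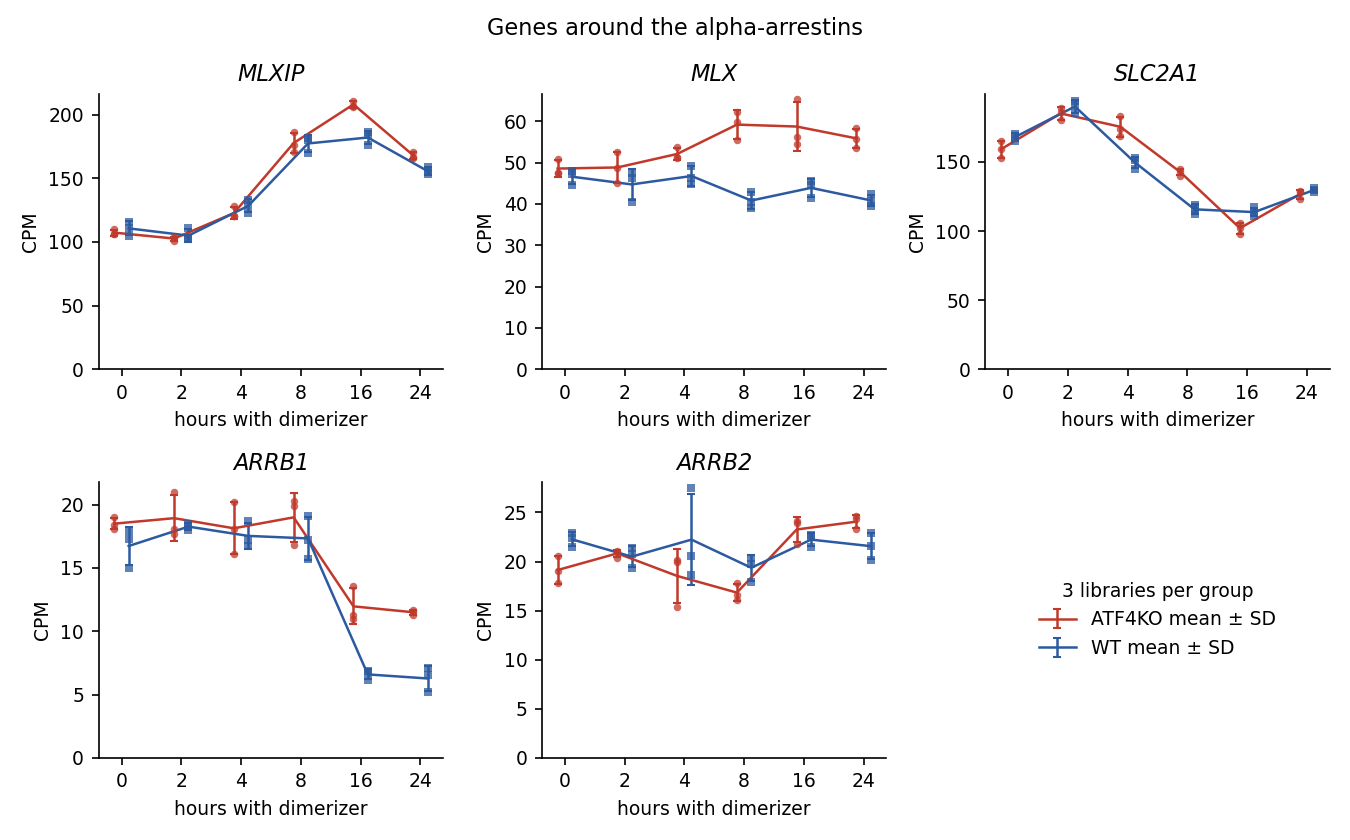
Level in CPM (y axis, from 0) of genes around the alpha-arrestins by hours with dimerizer (x axis, equal spacing), with points for libraries and lines for group means with SD over 3 libraries. ARRB1 drops between 8 and 16 h in both genotypes, and at 24 h it is at 11.5 CPM in ATF4KO cells and 6.27 CPM in WT cells.

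Genes of the ubiquitin ligases that alpha-arrestins recruit were called in both directions. Of 11 genes of the NEDD4 family and its adaptors, 3 were higher and 6 lower at 24 h in ATF4KO cells, and 2 were higher and 5 lower in WT cells, beside the 65.4% of all tested genes, with a median of -0.31 in ATF4KO cells and -0.20 in WT cells. NEDD4 changed by -0.31 in ATF4KO cells (SE 0.04, adjusted p 6.8e-08) and by 0.15 in WT cells (SE 0.04, adjusted p 0.0014), a difference of -0.46 (SE 0.06, adjusted p 6e-08). The WT value was 0.09 on log2(TPM + 1) (adjusted p 0.33). ITCH rose by 0.26 in ATF4KO cells and by 0.27 in WT cells (SE 0.06 each). WWP2 changed by -0.88 in ATF4KO cells and by -1.03 in WT cells (SE 0.05 each), and SMURF2 by -0.47 in ATF4KO cells and by -0.91 in WT cells (SE 0.04 each).

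The other tested arrestins were the beta-arrestins, which end signalling of G-protein-coupled receptors. ARRB1 fell at 24 h by 0.68 in ATF4KO cells (SE 0.10, adjusted p 7.2e-08) and by 1.42 in WT cells (SE 0.11, adjusted p 2.1e-14) on the log2 scale, a difference of 0.74 (SE 0.15, adjusted p 0.00019). ARRB2 rose by 0.34 in ATF4KO cells (SE 0.09, adjusted p 0.0011) and changed by -0.05 in WT cells (adjusted p 0.65). The difference was 0.39 (SE 0.13, adjusted p 0.017) and was lost without the first WT library at 24 h (0.32, adjusted p 0.069) or the third untreated ATF4KO library (0.33, adjusted p 0.072), and the ATF4KO rise was 0.02 on log2(TPM + 1) (adjusted p 0.91). Of 6 genes of the budding machinery used by ARRDC1, 4 were higher and 1 lower at 24 h in ATF4KO cells and 4 were higher and 0 lower in WT cells (65.4% of all tested genes were called), with a median of 0.20 in ATF4KO cells and 0.28 in WT cells. Among them, TSG101 rose by 0.26 in ATF4KO cells and by 0.39 in WT cells (SE 0.05 each). Of 3 tested genes around the inflammasome, which TXNIP is known to bind through NLRP3, 0 were higher and 2 lower at 24 h in ATF4KO cells, and 1 was higher and 2 lower in WT cells, with a median of -0.41 in ATF4KO cells and -0.40 in WT cells. NLRP3, the sensor of the inflammasome, rose at 8 h by 1.90 in ATF4KO cells (SE 0.18, adjusted p 5.3e-12) and by 2.14 in WT cells (SE 0.18, adjusted p 7.7e-14). At 24 h its change was 0.18 in ATF4KO cells (adjusted p 0.5) and 0.86 in WT cells (SE 0.21, adjusted p 0.00035), and the difference of -0.68 was not called (95% interval -1.30 to -0.05, adjusted p 0.099). That difference passed without the first untreated WT library (-0.90, adjusted p 0.039), and the ATF4KO change was 0.45 on log2(TPM + 1) (adjusted p 0.047). IL18 changed by -1.03 in ATF4KO cells and by -1.44 in WT cells (SE 0.03 each), a difference of 0.41 (SE 0.04, adjusted p 3.6e-10).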

How the data were processed

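Total RNA of 36 wells (1000 ng per library, directional kit, NovaSeq, per the labels' protocols) was sequenced. Reads were checked with FastQC 0.11.5 and quantified with Salmon 0.9.1 against GRCh38, per the submitters' processing notes. The sources used here do not give the annotation release, the strand setting or the way transcripts were summed to genes. As files, the authors deposited expected counts per gene and TPM per gene. In the expected counts, 72 to 78.9% of values per library were whole (tolerance 1e-06), and they were rounded. No deposited TPM was under 0.102292. Over 10521 genes of at least 10 CPM, 33 of 36 count columns best matched their own TPM column, the exceptions being untreated ATF4KO, so tests used counts. Of the 57665 gene identifiers, 53330 matched GENCODE 29.

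Genes were filtered with filterByExpr by group (19043 kept), scaled by TMM and fitted with 1 mean per group over all 36 libraries with edgeR 4.0.16 in R 4.3.3 and its quasi-likelihood test, giving 29 contrasts, each adjusted by Benjamini-Hochberg. The scripts were tested on simulated data. Other settings tried were DESeq2 1.42.0, RLE scaling, all genes unfiltered, the contrast's own groups, a replicate block, limma 3.58.1 on log2(TPM + 1) or log2(TPM + 0.1), TPM with no filter, and each library left out. TPM without the third untreated ATF4KO column was added after seeing the data. The replicate numbers correlated over 0.1 in every pair in 1 of 24 contrasts of 2 groups (ATF4KO against WT, 4 h), where the block changed no call of a member. No libraries of a group were the same within sampling noise. The number of counts limits the precision of ARRDC4 most.

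The 5 members and the 11 gene lists (members included) were chosen with earlier results of these data known. Named beside the members were the antisense partners, beta-arrestins, Mondo and Mlx factors, SLC2A1, NEDD4, ITCH, TXN, TXNRD1 and checks of the response, up to 3 genes per other list with the smallest adjusted p in a contrast described, up to 2 called against the majority, and the 3 genes of nearest pattern per member by Pearson's r (mean of at least 1 CPM, log2 range of at least 1). In the list of membrane proteins 1 gene is not reported here.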

Additional observations from a re-analysis of the deposited data

Results flagged for a closer look

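For 3 of the 5 genes the response to dimerizer differed between ATF4KO and WT cells by a test of the difference itself (edgeR). TXNIP rose less in ATF4KO cells, by -1.01 in log2 at 8 h, -0.64 at 16 h and -0.98 at 24 h. Its untreated level was already higher in ATF4KO cells, by 0.93 in log2 (edgeR adjusted p 1.7e-06). The TXNIP levels of the genotypes were not called apart at 8 and 24 h (-0.08 and -0.05). At 16 h that difference in level was 0.29 (edgeR adjusted p 0.014). ARRDC2 differed by -0.46 at 24 h, a value that was not kept on the TPM scale. ARRDC3 differed by 0.48 at 24 h.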

How the results depend on the processing

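RLE scaling and the replicate block changed none of the 145 calls of the members, that is, 5 genes in 29 contrasts, and 26 of 36 libraries correlated best with their own replicate number. With the replicate block the TXNIP difference at 8 h was -0.99 (edgeR adjusted p 2e-07). No filter and a fit of the contrast's own groups each added 1 call. DESeq2, which gave an adjusted p for 140 of the 145, lost 2. Leaving out 1 library at a time gave 1020 values, of which 993 kept direction and call, 21 lost a call, 6 gained one and none was reversed. Here reversed means a change of sign with a call in either fit. On log2(TPM + 1), which holds the mismatched untreated ATF4KO columns, 16 of 145 values kept their direction but lost the call, 1 gained one and 3 were reversed. None of these 3 was called in both fits. With the third untreated ATF4KO column left out, 13 lost the call and 0 were reversed. Of 186 values of named other genes, RLE scaling changed 1 call and the replicate block 0. On log2(TPM + 1), 35 of the 186 lost the call, 5 gained one and 1 was reversed. For these genes, leaving out 1 library at a time gave 1488 values, of which 29 lost a call and 11 gained one.

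Reversed values rested on TPM. On log2(TPM + 1) and log2(TPM + 0.1), ARRDC2 at 24 h in ATF4KO cells changed by 0.34 and 0.35, ARRDC3 by 0.24 and 0.25, and the ARRDC2 difference at 24 h was 0.03 on both and with no filter. IL18 at 8 h in ATF4KO cells was 0.18 on these 3 scales against -0.21 from counts, and WWP2 -0.19 with the third column left out against 0.13. The cause was not tested. TPM also called fewer of all tested genes, for example 1442 on log2(TPM + 1) against 4480 for ATF4KO against WT at 0 h and 3593 against 6897 at 16 h. On the TPM scales the members called were 1 of 5 for ATF4KO against WT at 0, 2, 16 and 24 h and 0 of 5 at 8 h on all 4, 5 of 5 in ATF4KO cells at 24 h on 2, and 1 of 5 for the step from 2 to 4 h in ATF4KO cells on 4 and with DESeq2. For the WT step from 16 to 24 h they were 1 of 5 on 3 scales and 0 of 5 with no filter. With no filter they were 3 of 5 in WT cells at 4 h, 1 of 5 for the WT step from 2 to 4 h and 0 of 5 for the difference at 16 h. With counts and no filter 1 of 5 was called for the difference at 2 h. Without 1 library the count ranged from 0 to 1 for the difference at 4 h, from 1 to 2 for ATF4KO against WT at 2 h and at 16 h, from 0 to 2 at 8 h, from 1 to 2 for the ATF4KO step from 2 to 4 h, and from 0 to 1 for that from 16 to 24 h.

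Over all 18 WT libraries the mean was 23.7 TPM for ARRDC1, 22.8 for ARRDC3, 22.5 for ARRDC2, 19.2 for TXNIP and 4.6 for ARRDC4. By Spearman's rho, 6 of the 15 nearest genes were the same. Over all tested genes, 165 were called for the difference at 2 h with no filter and 32 in its own groups, against 57. On log2(TPM + 1) it was 1093 against 4312 in WT cells at 2 h and 2465 against 5684 for the difference at 24 h.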
